A study of Homo sapiens with 6 samples.

Results

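The IGF binding proteins are described here at the level of their transcripts in WM266.4 cells, an established human melanoma cell line, after transfection with siRNA against RIPK4. The members were picked by gene name, IGFBP1 to IGFBP7 and IGF2R, by a rule that uses no measured value but was set with earlier results of these data known, and all 8 were found among the 24526 genes of the count table. The neg.si group consisted of 3 cultures given a non-targeting control siRNA, and the RIPK4.si group of 3 cultures given siRNA specific for RIPK4, with RNA taken 48 h after transfection and no other treatment in either group. The knockdown is transient, and the methods name a single siRNA for RIPK4, so effects of that siRNA on other transcripts cannot be told apart from those of losing RIPK4.

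Insulin-like growth factors (IGFs) circulate and act in tissue mostly bound to IGF binding proteins, small secreted proteins that hold the growth factor, prolong its life and keep it from or deliver it to its receptor. IGFBP1 to IGFBP6 bind IGFs tightly, whereas IGFBP7 binds them weakly and is known in melanocytes and melanoma as a secreted protein tied to growth arrest and senescence. IGF2R, the cation-independent mannose 6-phosphate receptor, carries newly made lysosomal enzymes from the Golgi and takes up IGF2 for breakdown, and it has no kinase of its own. Several IGFBPs also act without IGFs, through integrins, the matrix and the nucleus.

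Promoter windows from RefSeq (GRCh38.p14, 250 bases before to 50 after an annotated start site) were matched for 6 of the 8 members, and IGFBP1 and IGFBP7 had no entry. Those of IGFBP3 and IGFBP5, whose transcripts were higher in every RIPK4.si library, are shown beside those of IGFBP4 and IGFBP6, whose means were lower in RIPK4.si. The words searched on both strands were GGGCGG (the GC box), TATAAA and CCAAT, and capitals mark every match, with a GC box on the other strand reading CCGCCC. The windows lie at chr7:45921223-45921522 on the minus strand (IGFBP3), chr2:216695500-216695799 on the minus strand (IGFBP5), chr17:40443200-40443499 on the plus strand (IGFBP4) and chr12:53097417-53097716 on the plus strand (IGFBP6).
IGFBP3: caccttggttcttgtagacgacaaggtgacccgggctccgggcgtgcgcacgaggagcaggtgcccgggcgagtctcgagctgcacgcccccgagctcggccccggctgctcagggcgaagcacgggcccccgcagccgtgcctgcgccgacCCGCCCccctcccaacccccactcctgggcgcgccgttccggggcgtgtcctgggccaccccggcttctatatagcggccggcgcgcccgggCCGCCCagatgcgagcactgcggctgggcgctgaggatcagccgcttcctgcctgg
IGFBP5: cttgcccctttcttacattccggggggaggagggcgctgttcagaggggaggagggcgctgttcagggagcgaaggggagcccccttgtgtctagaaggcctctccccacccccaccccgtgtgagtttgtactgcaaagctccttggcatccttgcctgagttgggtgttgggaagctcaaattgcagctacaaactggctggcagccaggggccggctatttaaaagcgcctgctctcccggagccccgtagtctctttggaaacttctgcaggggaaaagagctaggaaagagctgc
IGFBP4: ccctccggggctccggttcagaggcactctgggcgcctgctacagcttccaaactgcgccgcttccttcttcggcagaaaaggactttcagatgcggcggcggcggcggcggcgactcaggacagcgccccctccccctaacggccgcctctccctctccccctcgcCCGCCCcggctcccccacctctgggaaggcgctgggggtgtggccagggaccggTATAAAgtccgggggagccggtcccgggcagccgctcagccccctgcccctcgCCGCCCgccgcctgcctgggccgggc
IGFBP6: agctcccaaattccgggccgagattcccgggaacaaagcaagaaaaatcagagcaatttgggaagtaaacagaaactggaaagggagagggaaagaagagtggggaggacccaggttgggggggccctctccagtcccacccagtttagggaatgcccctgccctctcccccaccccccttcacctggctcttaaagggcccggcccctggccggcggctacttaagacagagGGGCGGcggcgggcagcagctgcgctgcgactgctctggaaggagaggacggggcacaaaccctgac

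The GC box was present 2 times in the IGFBP3 window, 2 times in that of IGFBP4 and 1 time in that of IGFBP6, and these letters were not found in the IGFBP5 window. Among all 35116 RefSeq windows of this length, 45% held it. TATAAA was found in the IGFBP4 window alone among the 4, starting 29 bases before the start site, against 11.5% of all windows, and CCAAT, held by 34.6% of all windows, was in none of the 4. The windows of IGFBP3 and IGFBP4 were alike in base composition, with 74.7% and 74.0% G and C, although the transcripts lay on opposite sides in the comparison below. IGFBP5 had 59.0% and IGFBP6 61.7%, near the median of 58.7% over all windows. The windows of IGFBP3 and IGFBP6 stand at starts inside the gene bounds given below, not at the outermost ones.

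Read pairs counted on genes ranged from 28464057 to 31688095 per library. RIPK4 itself fell in RIPK4.si to 26.8% of the neg.si level, from 72.3 ± 15.9 to 19.4 ± 2.47 CPM (SD, n = 3), with an adjusted p of 0.0102 from edgeR. DESeq2 gave an adjusted p of 1.21e-13. The call by edgeR needed most of the libraries. Its adjusted p was 0.106 without neg.si replicate 2 and 0.094, 0.0622 and 0.0725 without RIPK4.si replicates 1, 2 and 3. In these fits edgeR called 0 to 4 genes in all. With each library left out, the log2 fold change of RIPK4 stayed between -2.06 and -1.74. All 9 melanocyte lineage markers looked up, among them MITF, SOX10 and TYR, passed the filter on low counts, and their summed level was 3599.7 to 4033.8 CPM in neg.si and 2664.0 to 2781.4 CPM in RIPK4.si. Keratinocyte markers summed to 10.5 to 11.9 CPM in neg.si and 12.2 to 16.3 CPM in RIPK4.si, nearly all of it KRT10, the 1 marker of 6 that passed the filter, while KRT14 and TP63 had at most 10 counts in any library and KRT1 and IVL were not analysed here. Fibroblast markers summed to 636.8 to 819.7 CPM in neg.si and 516.0 to 1044.4 CPM in RIPK4.si, with COL1A2 the most abundant and COL1A1 and DCN at no more than 10 counts. Endothelial markers summed to 2.39 to 3.93 CPM and leukocyte markers to 0.387 to 1.38 CPM over the 6 libraries. The neg.si libraries differed among themselves. Over 16239 genes, which are not independent, the deviation of a gene from its mean level had a rank correlation with GC content of 0.555 in neg.si replicate 1 but of -0.547 in neg.si replicate 3.

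Levels are in CPM, read pairs scaled to a common library size with TMM factors, and triplets of values are in the order of the replicate numbers. A log2 fold change is RIPK4.si over neg.si, its interval is the 95% interval of the fit, and a gene is called where edgeR's adjusted p over all 16297 genes tested is under 0.05. IGFBP transcripts from fewer expressing cells and from less RNA per cell cannot be told apart in these bulk libraries.

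None of the 7 members that passed the filter on low counts was called by edgeR, while 0.767% of all tested genes were. At an unadjusted p under 0.05 there were 5 of the 7, against 10.8% of all tested genes, and they pointed both ways, with IGFBP3 and IGFBP5 higher and IGFBP4, IGFBP6 and IGFBP7 lower in RIPK4.si. Leaving out neg.si replicates 1, 2 and 3 in turn brought this count to 1, 2 and 4, and leaving out RIPK4.si replicates 1, 2 and 3 brought it to 2, 3 and 1. DESeq2 called 1 member, IGFBP3, and 2.91% of its genes. With the dependence of every library on GC content taken out beforehand, edgeR also called IGFBP3 alone, beside 3.27% of all genes. In 4 members the groups of libraries did not overlap, of which IGFBP3 and IGFBP5 were higher (8.23% of all tested genes were so) and IGFBP6 and IGFBP7 lower (9.4% of all tested genes).

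**Figure D1:**
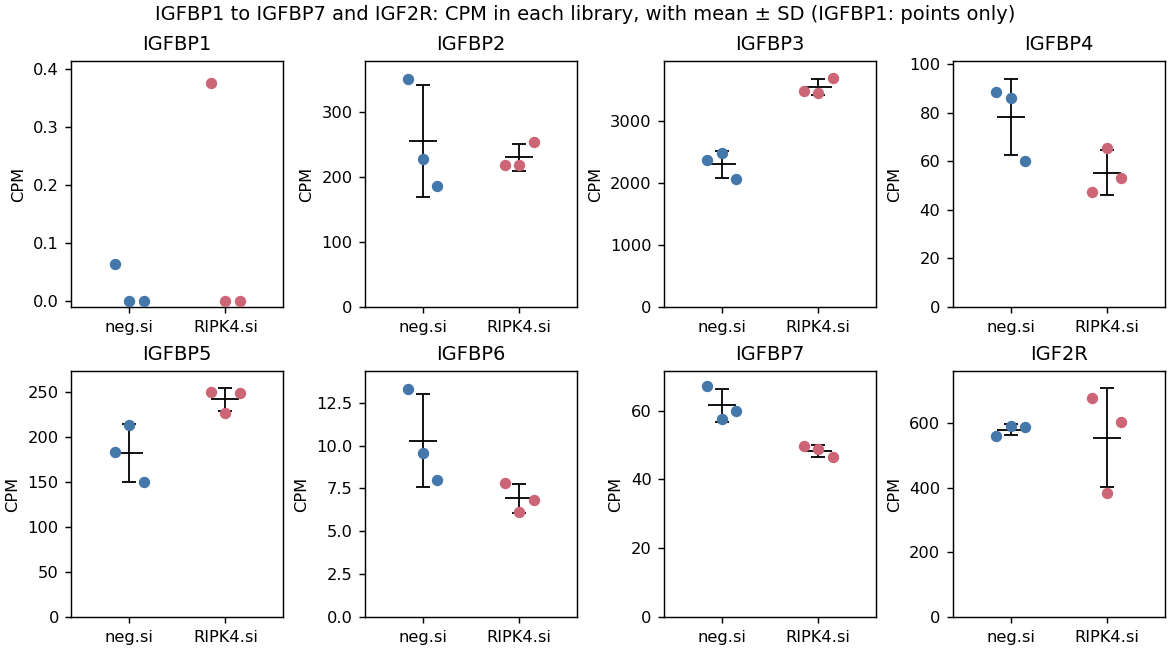
CPM (vertical axes, each from 0) of the 8 genes in the 3 neg.si and the 3 RIPK4.si libraries, with points for libraries and lines for mean ± SD, left out for IGFBP1. The RIPK4.si points of IGFBP3 (3452.5 to 3690.3) lie clear above the neg.si points (2057 to 2472), those of IGFBP7 clear below, and IGF2R has 1 RIPK4.si library at 382.5.

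IGFBP3 was by far the most abundant of the family, the main carrier of IGFs in serum and a protein also known to restrain growth without binding them. In GRCh38, the build of all positions here, it is a minus-strand gene of chromosome 7 between 45912245 and 45921874. The level was 2371, 2472 and 2057 CPM in the neg.si libraries and 3477, 3452.5 and 3690.3 CPM in the RIPK4.si libraries. Every RIPK4.si library was thus above every neg.si library, and the spread within groups was small, with a coefficient of variation of 9.42% in neg.si and 3.69% in RIPK4.si.

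The mean of IGFBP3 went from 2300.0 ± 216.6 to 3540.0 ± 130.8 CPM (SD, n = 3), or 1.54-fold. The log2 fold change was 0.62 (standard error 0.156, interval 0.27 to 0.97), with an adjusted p of 0.13 from edgeR, so the difference did not pass the threshold there. DESeq2 gave an adjusted p of 0.0108, and edgeR gave 0.0491 with the GC trend removed and 0.086 with that removal and a replicate block together. The exact permutation test gave p = 0.1 (two-sided), the smallest that 3 libraries against 3 allow, which was also the value for IGFBP5, IGFBP6 and IGFBP7. Over the settings tried the adjusted p of IGFBP3 lay between 0.0108 and 0.577, and with each library left out its log2 fold change stayed between 0.55 and 0.69.

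The genes with the profile most like that of IGFBP3 were PLXNA2, a semaphorin receptor, KIAA0040, and PDE4A, a phosphodiesterase that breaks down cyclic AMP. Likeness was the Euclidean distance between log2 CPM profiles over the 6 libraries, each centred on its own mean, and came to 0.0598 for PLXNA2, 0.0735 for KIAA0040 and 0.141 for PDE4A. PLXNA2 had 88.5 ± 6.42 CPM in neg.si and 136.1 ± 3.21 CPM in RIPK4.si (SD, n = 3), a far lower level than IGFBP3. Its log2 fold change of 0.62 was that of IGFBP3 to 2 decimals, and such closeness follows from picking genes by their profile.

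IGFBP5, a binding protein that attaches to the matrix and to bone mineral, was the other member with a higher level in RIPK4.si. It lies on chromosome 2, from 216672105 to 216695549 on the minus strand, at a distance of 7.67 kb from IGFBP2. Its level was 183.9, 213.6 and 149.9 CPM in neg.si and 250.4, 226.9 and 249.0 CPM in RIPK4.si. The groups were close but did not overlap, with the highest neg.si library at 213.6 and the lowest RIPK4.si library at 226.9.

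IGFBP5 averaged 182.4 ± 31.9 CPM in neg.si and 242.1 ± 13.2 CPM in RIPK4.si (SD, n = 3), 1.33-fold. The log2 fold change was 0.41 (standard error 0.165, interval 0.04 to 0.78) with an adjusted p of 0.396 from edgeR and 0.361 from DESeq2 (0.146 to 0.878 over all settings). Without neg.si replicate 3, the lowest library, the log2 fold change was 0.29. The lncRNA DIRC3-AS1 shares exon sequence with IGFBP5 on the opposite strand, and had 18 to 34 counts per library. Strand was ignored in counting, and the part of read pairs from that stretch in the IGFBP5 values was not tested.

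IGFBP4 is a binding protein known mainly for holding IGFs back until the protease PAPPA cuts it. It lies on chromosome 17, from 40443450 to 40457725 on the plus strand. Its level was 88.5, 86.1 and 60.1 CPM in neg.si and 47.4, 65.4 and 52.9 CPM in RIPK4.si. The groups overlapped, since neg.si replicate 3 was below RIPK4.si replicate 2.

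The mean of IGFBP4 was 78.3 ± 15.8 CPM in neg.si and 55.2 ± 9.22 CPM in RIPK4.si (SD, n = 3), which is 70.6% of that in neg.si. On the log2 scale the fold change was -0.50 (standard error 0.197, interval -0.95 to -0.06), with an adjusted p of 0.373 from edgeR and 0.378 from DESeq2. The transcript is rich in G and C, at 62.6%, against a median of 47.9% over genes. With the GC trend removed the log2 fold change was -0.54 and the adjusted p from edgeR 0.0626. A replicate block added to this gave 0.0498, the lowest of a range that reached 0.898 over all settings. That block treats same-numbered libraries as pairs, although these did not deviate together in every pair. With 1 library left out the log2 fold change ran from -0.39, without neg.si replicate 1 or RIPK4.si replicate 1, to -0.66, without neg.si replicate 3.

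IGFBP6, which prefers IGF2 over IGF1, was the least abundant member that was tested. It lies on chromosome 12, from 53097436 to 53102345 on the plus strand, and its transcript had the highest GC content of the 8, 64.1%. Its counts were 413, 287 and 254 in neg.si and 229, 177 and 213 in RIPK4.si, or 13.3, 9.56 and 8.0 CPM against 7.80, 6.13 and 6.85 CPM. The groups did not overlap, but neg.si replicate 3 and RIPK4.si replicate 1 were nearly level, and neg.si replicate 1 stood above the other neg.si libraries.

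IGFBP6 averaged 10.3 ± 2.75 CPM in neg.si and 6.93 ± 0.842 CPM in RIPK4.si (SD, n = 3), 67.3% of that in neg.si. On the log2 scale the fold change was -0.57 (standard error 0.227, interval -1.08 to -0.06), with an adjusted p of 0.384 from edgeR and 0.35 from DESeq2 (0.101 to 0.851 over all settings). It moved most without neg.si replicate 1, to -0.32. With the GC trend removed it was -0.59, with an adjusted p of 0.106 from edgeR.

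IGFBP7 lies on chromosome 4, from 57030773 to 57110385 on the minus strand. Its level was 67.0, 57.6 and 59.8 CPM in neg.si and 49.7, 48.7 and 46.4 CPM in RIPK4.si. The 6 libraries separated cleanly and varied little within a group, by 8.01% in neg.si and 3.47% in RIPK4.si.

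The mean of IGFBP7 was 61.5 ± 4.92 CPM in neg.si and 48.2 ± 1.67 CPM in RIPK4.si (SD, n = 3), 78.5% of that in neg.si. On the log2 scale the fold change was -0.35 (standard error 0.141, interval -0.67 to -0.03), with an adjusted p of 0.391 from edgeR and 0.477 from DESeq2 (0.147 to 0.935 over all settings). The levels of POLR2B, a subunit of RNA polymerase II whose exons overlap IGFBP7 on the opposite strand, averaged 152.7 ± 7.18 CPM in neg.si and 143.4 ± 11.7 CPM in RIPK4.si, and read pairs from the shared stretch cannot be assigned by strand.

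IGFBP2, often raised in tumours and able to bind integrins, did not differ between groups beyond the spread of the libraries. It lies on chromosome 2, from 216632828 to 216664436 on the plus strand, and meets IGFBP5 tail to tail. Its level was 350.5, 227.5 and 185.6 CPM in neg.si and 218.4, 217.6 and 253.1 CPM in RIPK4.si. The neg.si libraries alone spanned the whole range seen in RIPK4.si, with neg.si replicate 1 standing far above the rest.

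IGFBP2 averaged 254.5 ± 85.7 CPM in neg.si and 229.7 ± 20.3 CPM in RIPK4.si (SD, n = 3), and the log2 fold change of -0.15 (standard error 0.227, interval -0.66 to 0.36) had an adjusted p of 0.916 from edgeR. The direction rested on neg.si replicate 1, without which the log2 fold change was 0.17. IGFBP2 and IGFBP5, though neighbours, thus had unlike profiles, and the ratio of IGFBP5 to IGFBP2 CPM was 0.525, 0.939 and 0.808 in neg.si and 1.15, 1.04 and 0.984 in RIPK4.si.

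IGFBP1, a binding protein made mainly by liver and decidua and held down by insulin, was close to absent. It lies on chromosome 7, from 45888360 to 45893660 on the plus strand, 18.59 kb from IGFBP3. It had 2, 0 and 0 counts in neg.si and 11, 0 and 0 counts in RIPK4.si, and it did not pass the filter on low counts. It entered only the fits with DESeq2, which gave it no adjusted p, and without that filter, which did not call it. A count of 0 allows a level of up to 0.0944 to 0.104 CPM in a library, taking 3 counts as the limit, and this covers counting error only. The most and the least abundant genes of the family thus lay close together on the chromosome, on opposite strands.

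IGF2R lies on chromosome 6, from 159969099 to 160113507 on the plus strand, and its longest transcript spans 49 exons and 14.2 kb. Its level was 559.6, 590.7 and 587.7 CPM in neg.si and 677.9, 382.5 and 604.8 CPM in RIPK4.si. The neg.si libraries agreed within a coefficient of variation of 2.97%, whereas RIPK4.si replicate 2 was far below the other RIPK4.si libraries, for a coefficient of variation of 27.7%.

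IGF2R averaged 579.3 ± 17.2 CPM in neg.si and 555.0 ± 153.8 CPM in RIPK4.si (SD, n = 3), and the log2 fold change of -0.06 (standard error 0.211, interval -0.54 to 0.41) had an adjusted p of 0.972 from edgeR. Without RIPK4.si replicate 2 the log2 fold change was 0.16, so no direction can be given. In that library, levels across 16239 genes followed transcript length with a rank correlation of -0.166, against 0.0394 and 0.127 in the other RIPK4.si libraries. It was -0.269 in neg.si replicate 1, where IGF2R had 559.6 CPM, and the part of length in the IGF2R values was not tested. The pseudogene CHP1P2 lies within IGF2R on the same strand and had 39 to 129 counts.

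**Figure D2:**
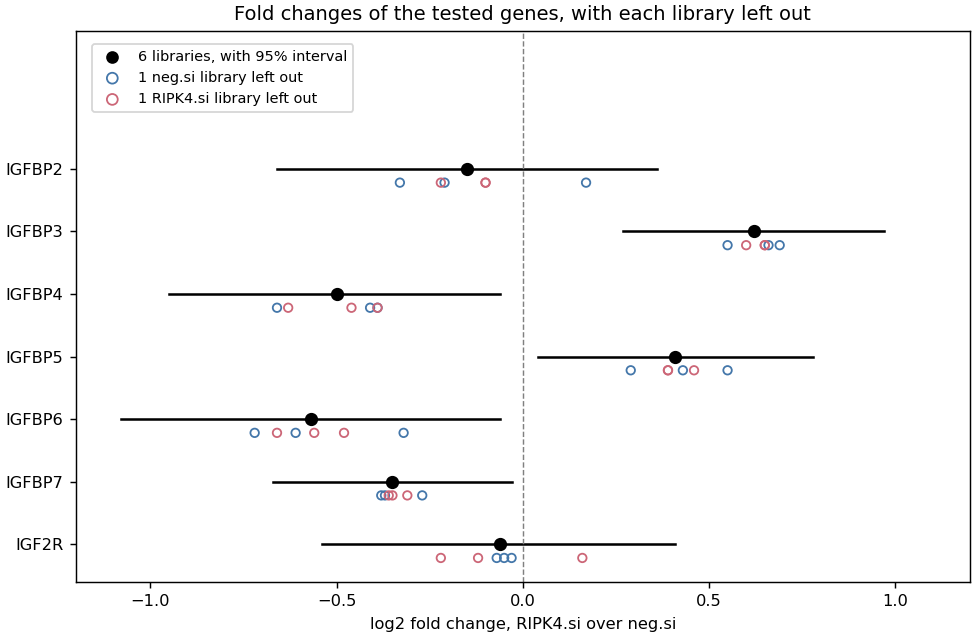
Log2 fold change of RIPK4.si over neg.si (horizontal axis) for the 7 tested genes, with filled points and lines for the fit on 6 libraries and its 95% interval, and open circles for fits with 1 library left out. IGFBP3 keeps values from 0.55 to 0.69 in all of these fits, whereas IGFBP2 and IGF2R cross 0.

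Levels of different genes were compared per kb of annotated exon. In neg.si, IGFBP3 was first at 503.4 ± 47.4 CPM per kb (SD, n = 3), rank 38 among all genes with a length. IGFBP2 followed at 53.7 ± 18.1, IGFBP4 at 35.5 ± 7.15, IGFBP7 at 31.9 ± 2.55, IGFBP5 at 28.2 ± 4.93 and IGF2R at 25.6 ± 0.76 CPM per kb. Each of these 5 overlapped its neighbour in the order, except that IGFBP3 stood clear of IGFBP2. IGFBP6, at 7.65 ± 2.04 CPM per kb, lay clear below IGF2R.

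In RIPK4.si the order per kb was IGFBP3 at 774.8 ± 28.6, IGFBP2 at 48.4 ± 4.27, IGFBP5 at 37.4 ± 2.04, IGFBP4 at 25.1 ± 4.18, IGFBP7 at 25 ± 0.866, IGF2R at 24.5 ± 6.80 and IGFBP6 at 5.15 ± 0.625 CPM per kb. IGFBP5 had moved from behind IGFBP4 and IGFBP7 to ahead of them, and its lowest RIPK4.si library, 35.1, was above the highest of IGFBP4, 29.7, and of IGFBP7, 25.7. IGFBP4, IGFBP7 and IGF2R overlapped one another. With the longest annotated transcript as the length, IGFBP3 had 874.2 CPM per kb in neg.si. IGFBP7 (43.1) and IGF2R (40.7) then came ahead of IGFBP4 (35.5). Thus only the places of IGFBP3, IGFBP2 and IGFBP6 were the same for both lengths in neg.si. The longest annotated IGFBP2 transcript, of 4.414 kb, has 2 exons, against 4 in IGFBP4, IGFBP5 and IGFBP6. Which IGFBP2 transcript the cells made was not tested, and a shorter one would mean a higher level per kb and a larger share below.

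**Figure D3:**
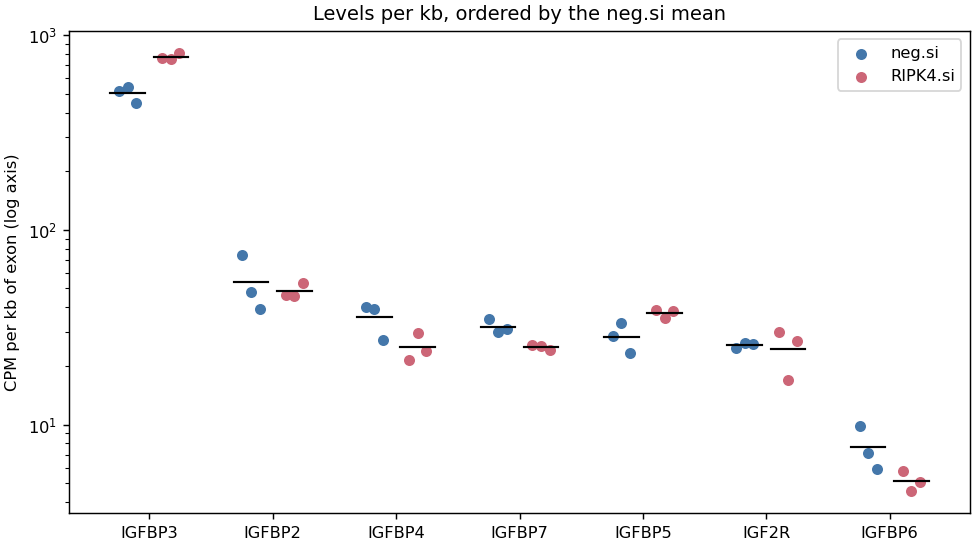
CPM per kb of exon (log axis) of the 7 tested genes, ordered by the neg.si mean, with points for the 3 libraries of each group and lines for group means. With these annotated lengths, IGFBP3 is more than 5 times above every other gene in both groups. IGFBP5 lies above IGFBP4 and IGFBP7 in RIPK4.si alone.

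The summed transcript of IGFBP1 to IGFBP7 was 3074, 3066 and 2520.2 CPM in neg.si and 4051, 4017 and 4298 CPM in RIPK4.si. Without IGFBP3 the sums were 703.3, 594.3 and 463.4 CPM in neg.si and 574.1, 564.8 and 608.2 CPM in RIPK4.si, and these overlapped. The higher sum in RIPK4.si was thus that of IGFBP3. Per kb, IGFBP3 made up 73.5% to 78.1% of the summed family in the neg.si libraries and 84.3% to 84.8% in the RIPK4.si libraries. With the longest transcript as the length these shares were 81.3% to 84.6% and 89.5% to 89.8%.

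**Figure D4:**
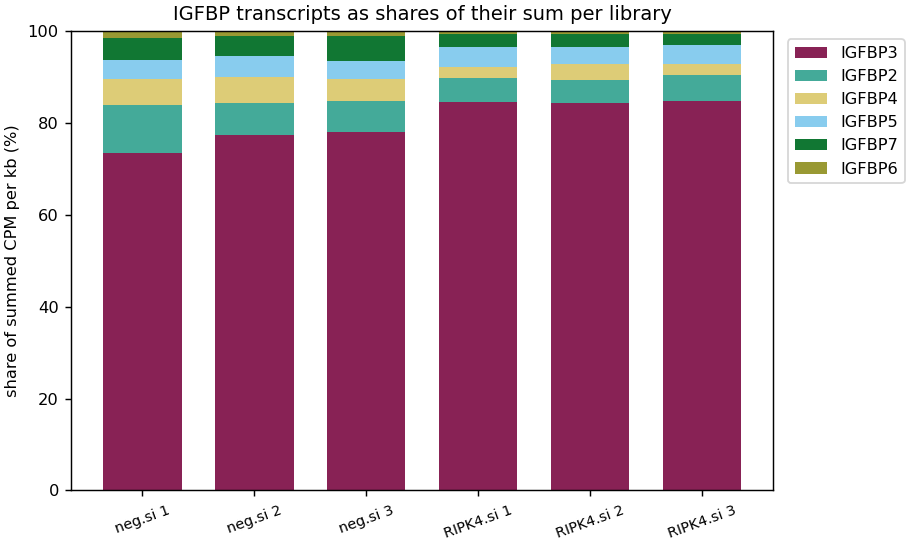
Share of each IGFBP in the summed CPM per kb of the family (vertical axis, percent) in each of the 6 libraries, with IGFBP1 too small to see. IGFBP3 takes 73.5% to 78.1% in neg.si and 84.3% to 84.8% in RIPK4.si, and the bands of IGFBP2, IGFBP4, IGFBP6 and IGFBP7 are narrower there, that of IGFBP2 (6.79% to 10.5% against 5.12% to 5.6%) although its CPM overlapped between groups.

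Ratios within a library do not depend on the scaling between libraries, and the following were picked after the values were seen. The ratio of IGFBP3 to IGFBP4 CPM was 26.8, 28.7 and 34.2 in neg.si and 73.3, 52.8 and 69.8 in RIPK4.si. That of IGFBP3 to IGFBP7 was 35.4, 42.9 and 34.4 in neg.si and 70.0, 70.9 and 79.5 in RIPK4.si. The ratio of IGFBP3 to IGFBP5 moved less, from 12.9, 11.6 and 13.7 in neg.si to 13.9, 15.2 and 14.8 in RIPK4.si.

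The rest of the IGF axis was followed through 7 lists of 97 genes, of which 76 were tested. Of these, 3 were called by edgeR (0.767% of all tested genes were), and 18 had an unadjusted p under 0.05, which is 23.7% beside 10.8% of all tested genes. The median log2 fold change of all tested genes was -0.023.

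Among the ligands and signalling receptors, IGF1, IGF2, INS and INSRR were not analysed here, and neither of the 2 genes tested was called. IGF1R, the receptor that passes the IGF signal, had 144.6 ± 6.51 CPM in neg.si and 137.6 ± 15.3 CPM in RIPK4.si (SD, n = 3), a log2 fold change of -0.07 with an interval of -0.40 to 0.26 (adjusted p = 0.944 from edgeR). INSR, the insulin receptor, had 28.9 ± 1.74 and 30.8 ± 3.39 CPM. Of the 19 genes tested downstream of the receptors, 0 were called by edgeR and 0 by DESeq2, and 2 had an unadjusted p under 0.05. Among these was the transcription factor FOXO1, at 19.4 ± 3.28 CPM in neg.si and 14.4 ± 1.62 CPM in RIPK4.si. The median log2 fold change of this list was -0.07. AKT1 had 116.5 ± 35 and 163.4 ± 29.0 CPM and IRS2, an adaptor of the receptors, 45.9 ± 2.89 and 56.7 ± 7.71 CPM, with adjusted p-values from edgeR of 0.504 and 0.546.

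PAPPA and PAPPA2, the proteases that cut IGFBP4 and IGFBP5, did not pass the filter on low counts, with means of 0.0546 CPM each in neg.si and of 0.0986 and 0.0570 CPM in RIPK4.si. The same was true of PRG2, MMP3, MMP7, MMP9 and PLAU, each at a mean of 0.36 CPM or less in both groups. Of the 10 proteases and inhibitors tested, 0 were called by edgeR, 3 had an unadjusted p under 0.05 and DESeq2 called 2, and the list's median log2 fold change was 0.112. The pair called by DESeq2 were ADAM12, a protease that cuts IGFBP3 and IGFBP5, and STC2, an inhibitor of PAPPA. ADAM12 had 26.9, 29.5 and 37.6 CPM in neg.si and 86.4, 48 and 78.5 CPM in RIPK4.si, for a log2 fold change of 1.18 (adjusted p = 0.066 from edgeR, 0.000165 from DESeq2). STC2 had 9.36, 12.9 and 10.8 CPM in neg.si and 23.4, 15.6 and 19.2 CPM in RIPK4.si, for a log2 fold change of 0.82 (adjusted p = 0.134 from edgeR, 0.015 from DESeq2). With the GC trend removed, edgeR called both (adjusted p = 0.0149 for ADAM12 and 0.0372 for STC2). Over the settings tried, the adjusted p of ADAM12 reached 0.337 and that of STC2 0.489. HTRA1, a secreted protease that carries an IGFBP-type domain, had 305.2 ± 46.0 and 236.1 ± 21.0 CPM, and PLAT, tissue plasminogen activator, 181.6 ± 59.7 and 237.9 ± 19.9 CPM, with adjusted p-values from edgeR of 0.459 and 0.651.

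The genes that share the IGFBP-type N-terminal domain outside the family held 2 of the 3 list genes called. Of 9 tested, edgeR called 2 that rose and 0 that fell, and 6 had an unadjusted p under 0.05, 2 of them higher and 4 lower in RIPK4.si, with a median log2 fold change of -0.088. CCN1, a matrix-associated protein that binds integrins, rose from 5.72 ± 0.292 to 14.8 ± 2.03 CPM (SD, n = 3), or by 1.37 on the log2 scale with a standard error of 0.18 (edgeR, adjusted p = 0.0196). CCN2, connective tissue growth factor, rose from 59.4 ± 2.94 to 140.2 ± 9.11 CPM, or by 1.24 on the log2 scale with a standard error of 0.139 (edgeR, adjusted p = 0.0102). In both genes the lowest RIPK4.si library was more than 2 times the highest neg.si library. Both are textbook targets of YAP and TAZ. CCN2 shares exon sequence with LINC01013 on the opposite strand.

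DESeq2 gave CCN1 and CCN2 adjusted p-values of 1.26e-07 and 1.52e-10. Their calls by edgeR were lost without neg.si replicate 2 (adjusted p from edgeR 0.174 and 0.129). They were also lost without RIPK4.si replicate 1 (0.0992 and 0.094), RIPK4.si replicate 2 (0.0942 and 0.0593) or RIPK4.si replicate 3 (0.129 and 0.1). With each library left out the log2 fold changes stayed between 1.26 and 1.44 for CCN1 and between 1.2 and 1.29 for CCN2. HTRA3, a secreted protease, pointed the other way, with 3.68, 3.06 and 2.24 CPM in neg.si and 1.43, 1.11 and 1.29 CPM in RIPK4.si, for a log2 fold change of -1.23 (adjusted p = 0.0902 from edgeR, 0.0171 from DESeq2, up to 0.445 in other settings). CCN5 had 2.90 ± 0.404 and 1.45 ± 0.269 CPM and CCN3, known in melanocytes for anchoring them to the basement membrane, 78.3 ± 10.8 and 59.3 ± 4.79 CPM, with adjusted p-values from edgeR of 0.136 and 0.383. With the GC trend removed, edgeR called 4, with HTRA3 (adjusted p = 0.0233) and CCN5 (0.0496) lower beside CCN1 and CCN2. IGFBPL1, HTRA4 and CCN6 did not pass the filter on low counts.

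IGF2R works within the mannose 6-phosphate route, and all 18 genes of that list were tested. EdgeR called 0 and DESeq2 3, and 5 had an unadjusted p under 0.05, 3 of them higher and 2 lower in RIPK4.si. VPS26A and VPS26B, alternative subunits of the retromer that returns sorting receptors to the Golgi, had log2 fold changes of 0.72 and 0.86 (adjusted p = 0.0978 and 0.0688 from edgeR, 0.00882 and 0.00246 from DESeq2). VPS26A had 44.2 ± 6.08 and 72.7 ± 7.72 CPM, and VPS26B, which overlaps NCAPD3 on the opposite strand, 43.3 ± 6.04 and 78.7 ± 12.2 CPM (SD, n = 3). SORT1, sortilin, another sorting receptor, had 462.0, 534.4 and 564.7 CPM in neg.si and 375.4, 259.5 and 344.4 CPM in RIPK4.si, for a log2 fold change of -0.67 (adjusted p = 0.156 from edgeR, 0.0293 from DESeq2). With the GC trend removed, edgeR called all 3 (adjusted p = 0.0207 for VPS26A, 0.0115 for VPS26B and 0.0438 for SORT1). Over the settings tried, the adjusted p reached 0.451 for VPS26A, 0.374 for VPS26B and 0.568 for SORT1. SORL1 had 135.7 ± 11.0 and 103.8 ± 12.9 CPM. As with IGF2R, RIPK4.si replicate 2 was the lowest library for SORT1.

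Among the cell-surface and matrix partners of IGFBPs, 1 of 16 genes rose and 0 fell by edgeR, and DESeq2 called 2. SDC4, a heparan sulfate proteoglycan of the cell surface, rose from 56.7 ± 2.42 to 109.9 ± 11.6 CPM (SD, n = 3), or by 0.95 on the log2 scale with a standard error of 0.145 (edgeR, adjusted p = 0.0329). Its call by edgeR was lost without neg.si replicate 2 (adjusted p 0.251) or RIPK4.si replicate 1, 2 or 3 (0.123, 0.116 and 0.215). The log2 fold change of SDC4 stayed between 0.88 and 1.04 with each library left out, and DESeq2 gave an adjusted p of 2.11e-05. CAV1, caveolin of the plasma membrane, had 350.9 ± 22.2 and 639.5 ± 100.3 CPM, a log2 fold change of 0.87. Its adjusted p was 0.054 from edgeR, 0.0353 from edgeR with the GC trend removed, 0.000528 from DESeq2 and up to 0.311 in other settings. CD93, a receptor for IGFBP7, was near the filter at 0.678 ± 0.105 and 1.23 ± 0.471 CPM, and SPP1, osteopontin, and the integrin subunit ITGB3 had 2245.8 ± 446.6 and 1710.3 ± 166.0 CPM and 662.6 ± 114.3 and 515.4 ± 122.0 CPM with overlapping groups. VTN did not pass the filter. HTRA1, CCN3 and SPP1 overlap antisense lncRNAs, which counting without strand cannot set apart.

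The IGF2 mRNA binding proteins, which share part of their name with the family but bind RNA, were also read. IGF2BP1 had 31.5 ± 2.01 and 29.1 ± 0.289 CPM, IGF2BP2 81.4 ± 10.5 and 90.6 ± 26.3 CPM and IGF2BP3 173.5 ± 23.8 and 146.2 ± 21.2 CPM in neg.si and RIPK4.si (SD, n = 3). None of the 3 was called by edgeR or DESeq2, and none had an unadjusted p under 0.05. On the opposite strand, IGF2BP3 shares exon sequence with the protein-coding gene MALSU1 and IGF2BP1 with lncRNAs, which counting without strand cannot set apart.

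**Figure D5:**
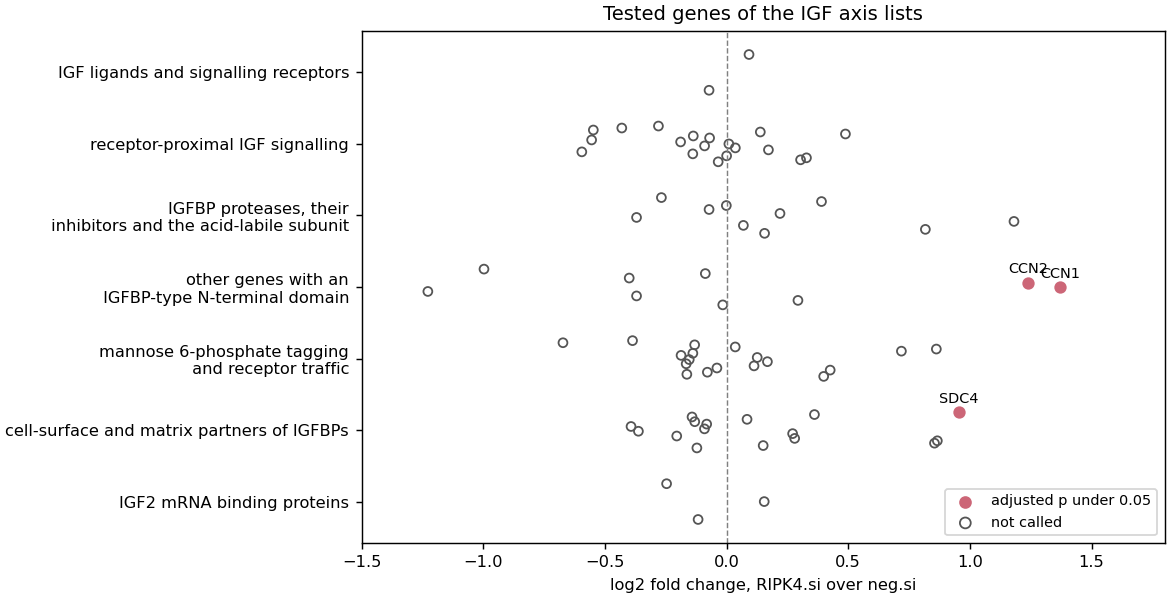
Log2 fold change of RIPK4.si over neg.si (horizontal axis) for the 76 tested genes of the 7 lists, 1 row of points per list, filled where the adjusted p from edgeR was under 0.05. The filled points are CCN2 at 1.24, CCN1 at 1.37 and SDC4 at 0.95, all higher in RIPK4.si.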

How the data were processed

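Poly(A) RNA of 6 cultures was sequenced by the authors as paired reads on the BGISEQ-500, trimmed with Cutadapt, mapped with TopHat to GRCh38.p13 and assigned to genes with HTSeq without strand. The deposited counts are whole read pairs per gene and library, and the smallest gene total in the table is 6. Further columns with the authors' DESeq2 values were not used. Every column was mapped to its sample by the code in the title.

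edgeR 4.0.16 in R 4.3.3 was run on the counts with TMM, its default filter and a quasi-likelihood test of condition. P-values were adjusted over all tested genes by Benjamini-Hochberg. DESeq2 1.42.0, other scalings and filters, a replicate block, a lowess removal of the GC trend (span 0.3) and each library left out were the alternatives. The test was checked on simulated data. The standard error was the log2 fold change over the root of F. Exon lengths and GC content came from GENCODE 44, which held 24416 of the 24526 identifiers.

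Replicates are biological and from separate experiments in the study's account, and no pair of a group was as close as sampling noise (chi-square per degree of freedom 18.4 or more). The members and lists were chosen with earlier results of these data known. Named genes were all members, RIPK4, list genes that were called, up to 4 others of each list by smallest p, genes overlapping a member, and the 3 genes most like the member with the largest fold change. Genes that did not pass the filter, overlap partners of list genes and marker genes were named in addition, outside this rule, and 1 gene that the rule names is not reported here. Python 3.11.15, pandas 2.3.3, scipy 1.17.1 and matplotlib 3.10.9 were used.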

Additional observations from a re-analysis of the deposited data

How the results depend on the processing

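The count of all genes called, 125, was 437 with DESeq2, 533 with the GC trend removed, 434 with that removal and a replicate block, and 0 to 295 with 1 library left out. It was 0 without neg.si replicate 2, RIPK4.si replicate 1 or RIPK4.si replicate 3, and 4 without RIPK4.si replicate 2. The members called went from 0 to 1 with DESeq2 (IGFBP3), with the GC trend removed (IGFBP3) and with that removal and the block (IGFBP4), and stayed at 0 in the other settings. The count of list genes called, 3, was 10 with DESeq2, 4 with upper-quartile factors, 4 without the filter on low counts, 5 with the replicate block (ADAM12 at an adjusted p of 0.0402 and CAV1 at 0.0481 from edgeR were added), 11 with the GC trend removed, 8 with both, and 0 to 7 with 1 library left out.

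Of 98 fits of the 7 tested members under alternatives, 2 turned the sign, those of IGFBP2 without neg.si replicate 1 (range with 1 library left out -0.33 to 0.17) and IGF2R without RIPK4.si replicate 2 (-0.22 to 0.16), and 3 brought a call, as above. The cause was not tested. Same-numbered libraries did not deviate together in every pair (correlations -0.242, 0.251 and 0.346), so the numbers were not taken as pairs. The replicate block alone gave 131 calls and a log2 fold change of IGFBP3 of 0.63. Depth limits IGFBP1, PAPPA and the other genes that failed the filter.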
